A study of Homo sapiens with 12 samples.

Results

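The genes described here are 41 genes of glycolysis and of the response to low oxygen, taken by gene symbol from a table of 57152 genes with values in human lung cell lines. They comprise 17 glycolytic enzymes, 7 regulators of glycolysis and glucose transporters, and 17 genes known as targets of the hypoxia-inducible factors. All 41 symbols were found in the table, and 40 averaged 1 TPM (a transcript abundance scaled for length and library total) or more across the 12 libraries, the level needed for a test. In all, 13968 genes were tested. The member below that limit was CA9, and HK2 passed it only through 1 group.

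Glycolysis splits glucose into pyruvate, and most of its steps are carried out by several isozymes encoded by different genes. Aldolase, which cleaves fructose bisphosphate, has among its forms a muscle-type one (ALDOA) and a brain-type one (ALDOC), and enolase has a broadly expressed form (ENO1), a neuron-type form (ENO2) and a muscle-type form (ENO3). When oxygen is low, the hypoxia-inducible factors escape degradation by the VHL ubiquitin ligase and switch on glucose transporters, glycolytic enzymes, kinases that hold back pyruvate dehydrogenase, and genes of mitophagy, matrix hydroxylation, pH control and vessel growth.

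RNA was sequenced from 12 libraries in 4 groups of 3. LB cells with amiodarone plus HPbCD were seeded with 10 mg/ml HPbCD and were given 10 µM amiodarone after 24 h, for a further 24 h. LB cells with amiodarone received the same drug dose and time without HPbCD. LB cells with DMSO and A549 cells with DMSO received 0.1% DMSO as vehicle for 24 h. The vehicle of the amiodarone-treated groups is not stated separately in the labels. A549 is a line from a human lung adenocarcinoma, and the labels name A549 cells as the source of the LB line too but do not say how LB cells were derived or whether they are 1 clone. Amiodarone is an antiarrhythmic drug that collects in acidic organelles, and HPbCD is the usual abbreviation for hydroxypropyl-beta-cyclodextrin, a ring-shaped sugar that carries sterols. All cells grew in the same medium, and no group was labelled as kept at low oxygen. LB cells with HPbCD alone and A549 cells with amiodarone were not analysed here. Nothing in the labels says that the 3 libraries of a group came from separate cultures, so each p-value speaks only of the spread among these libraries, which may be technical.

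The promoters of 6 members are printed because they set the isozymes that moved beside the isozymes that moved less, and add a further enzyme and a mitophagy gene. ALDOC and ALDOA are the aldolase pair, ENO2 and ENO1 the enolase pair, PGK1 makes ATP from bisphosphoglycerate, and BNIP3 marks mitochondria for autophagy. Each line holds the 250 bases before a RefSeq transcript start (GRCh38.p14), read 5′ to 3′ along the gene. Capitals mark ACGTG and GCGTG, the cores of the hypoxia response element, on either strand, so that CACGT and CACGC are these cores read from the other strand and CACGTG holds ACGTG on both strands.
ALDOC, chr17:28576896-28577145, minus strand: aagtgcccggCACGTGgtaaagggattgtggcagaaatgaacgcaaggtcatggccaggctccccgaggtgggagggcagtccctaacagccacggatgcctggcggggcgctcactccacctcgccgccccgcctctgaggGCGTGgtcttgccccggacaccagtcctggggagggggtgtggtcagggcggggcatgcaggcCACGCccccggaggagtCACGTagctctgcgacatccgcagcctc
ALDOA, chr16:30064029-30064278, plus strand, the most upstream of 3 starts: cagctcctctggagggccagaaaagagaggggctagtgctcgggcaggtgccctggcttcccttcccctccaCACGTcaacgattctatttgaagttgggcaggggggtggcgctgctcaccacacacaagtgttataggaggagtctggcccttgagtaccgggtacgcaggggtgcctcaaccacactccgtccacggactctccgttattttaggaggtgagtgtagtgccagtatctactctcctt
ENO2, chr12:6914330-6914579, plus strand: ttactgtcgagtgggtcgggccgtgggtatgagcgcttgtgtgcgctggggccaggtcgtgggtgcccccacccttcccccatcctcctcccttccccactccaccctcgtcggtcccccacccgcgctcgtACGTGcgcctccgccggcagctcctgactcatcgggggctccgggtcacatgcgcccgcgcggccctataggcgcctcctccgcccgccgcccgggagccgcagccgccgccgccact
ENO1, chr1:8878687-8878936, minus strand: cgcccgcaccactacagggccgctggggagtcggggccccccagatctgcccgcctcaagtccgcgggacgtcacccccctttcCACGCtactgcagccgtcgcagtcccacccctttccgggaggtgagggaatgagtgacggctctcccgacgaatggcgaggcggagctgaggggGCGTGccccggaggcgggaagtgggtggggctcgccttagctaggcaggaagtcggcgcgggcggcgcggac
PGK1, chrX:78103998-78104247, plus strand: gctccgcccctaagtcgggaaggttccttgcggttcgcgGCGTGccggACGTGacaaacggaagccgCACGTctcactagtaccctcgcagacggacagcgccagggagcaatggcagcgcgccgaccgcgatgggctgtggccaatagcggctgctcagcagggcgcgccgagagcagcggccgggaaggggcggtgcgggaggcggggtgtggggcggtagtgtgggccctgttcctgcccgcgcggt
BNIP3, chr10:131981924-131982173, minus strand: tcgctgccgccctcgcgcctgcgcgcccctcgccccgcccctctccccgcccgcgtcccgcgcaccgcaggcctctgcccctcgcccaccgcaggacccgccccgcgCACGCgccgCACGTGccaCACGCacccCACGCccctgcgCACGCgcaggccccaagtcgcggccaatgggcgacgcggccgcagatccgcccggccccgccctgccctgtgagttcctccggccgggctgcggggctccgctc

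The ALDOC window held 5 matches to the 2 cores, and 1.36% of the 35116 promoter windows in the RefSeq table held at least 5. The 3 ALDOA windows held 1, 2 and 1 matches. ENO2 had 1 match, ENO1 had 2, PGK1 had 3 and BNIP3 had 6. Among members not printed, the HK2 windows held 3 and 6 matches and the LDHA windows 5 and 1. With amiodarone against DMSO in LB cells, HK2 differed by 0.16 on the log2 scale and was not called, and LDHA differed by 0.15. Whether the number of matches goes with the size of a rise was not tested. Over the members, 35 of 41 had an entry, with 60 windows, of which 61.7% held ACGTG or GCGTG, against 43.2% of all windows. The share was 51.4% of the 37 windows of enzymes, 71.4% of the 7 windows of regulators and transporters, and 81.2% of the 16 windows of hypoxia targets. These shares weigh genes with several windows more. Counted by gene, a core was found for 14 of 17 enzymes, 4 of 5 regulators and transporters and 11 of 13 hypoxia targets. Among all genes with an entry it was found for 12945 of 27305. CACGTG, which overlaps ACGTG, was in 13.3% of member windows, against 6.34% of all windows. PFKFB2, SLC2A3, BNIP3L, NDRG1, VEGFA and HILPDA had no entry. A match is a run of letters and is not evidence of a bound site, and a window without one says nothing of the factor.

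The libraries resembled each other within groups, with correlations of log2(TPM + 1) of 0.985 to 0.989. Depth is not known, since TPM are scaled to a common total. KRT8, KRT18, EPCAM and CDH1, the epithelial markers, were above 0 in all 12 libraries and summed to 2462 to 3164 TPM in LB libraries, against 7058 to 7574 TPM in A549 libraries. This sum was nearly all KRT8 and KRT18, since EPCAM reached at most 12.1 TPM and CDH1 33.15 TPM in any library. The 7 type II alveolar markers were SFTPA1, SFTPB, SFTPC, SFTPD, ABCA3, LAMP3 and NAPSA. They summed to 1166 to 1579 TPM in LB libraries, against 22.3 to 22.7 TPM in A549 libraries. Not all were raised to such levels, since SFTPA1 reached at most 0.03 TPM, LAMP3 0.57 TPM and NAPSA 3.88 TPM in any library. Endothelial markers summed to at most 0.88 TPM, leukocyte markers to at most 5.85 TPM and fibroblast markers to at most 16.2 TPM in any library, and CD3E was at 0 throughout. The fibroblast sum was 6.54 to 7.41 TPM with amiodarone plus HPbCD, 10.8 to 16.2 TPM with amiodarone, 11.3 to 11.7 TPM in LB cells with DMSO and 3.77 to 6.11 TPM in A549 cells. Mitochondrially encoded genes took 5.38 to 6.73% of TPM with amiodarone plus HPbCD, 5.61 to 8.49% with amiodarone, 6.73 to 8.41% in LB cells with DMSO and 6.27 to 9.19% in A549 cells. The part of these markers in the results was not tested.

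ALDOC was the member that changed most in amiodarone-treated cells. It lies at chr17:28573115-28577264 on the minus strand (GRCh38, GENCODE 29). Its level was 75.2, 71.9 and 77.7 TPM in the 3 libraries with amiodarone plus HPbCD, 88.4, 97.1 and 99.8 TPM with amiodarone, 4.84, 5.35 and 6.03 TPM in LB cells with DMSO and 2.15, 2.34 and 3.16 TPM in A549 cells with DMSO. No 2 of these groups overlapped, and every amiodarone-treated library lay above every DMSO library. A lack of overlap between 2 groups, here and below, was common among all 13968 tested genes. With amiodarone against LB DMSO, 2125 genes lay wholly higher and 2061 wholly lower. These counts were 1808 and 1701 for the addition of HPbCD and 2655 and 2802 for both agents against DMSO. For LB against A549 cells they were 2599 and 3508.

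With amiodarone, mean ALDOC was 17.6 times that of LB cells with DMSO, a difference in log2(TPM + 1) of 3.91 ± 0.10 (SE, limma, adjusted p = 3.73e-10). The rise ranked 2 of 13968 by size. ALDOC differed by 3.57 ± 0.10 between amiodarone plus HPbCD and LB cells with DMSO (adjusted p = 6.42e-10, limma), the largest rise of the 13968 genes. Amiodarone plus HPbCD and amiodarone alone differed by -0.34 ± 0.10, which did not pass (adjusted p = 0.103, limma), although the 2 ranges did not overlap. LB cells with DMSO were 2.12 times A549 cells with DMSO (0.86 ± 0.10, adjusted p = 5.14e-05, limma). All 3 called differences held without each of the 12 libraries in turn.

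ALDOA, at chr16:30064164-30070457, was the abundant aldolase and also rose with the drug. It had 2173, 2105 and 2095 TPM with amiodarone plus HPbCD, 2217, 2202 and 2177 TPM with amiodarone, 1630.2, 1512 and 1549 TPM in LB cells with DMSO and 1399, 1303 and 1323 TPM in A549 cells. Both drug groups lay above both DMSO groups, with log2 differences of 0.49 ± 0.04 for amiodarone and 0.44 ± 0.04 for amiodarone plus HPbCD against LB cells with DMSO. ALDOC made up 3.41% ± 0.147 of the ALDOA and ALDOC total with amiodarone plus HPbCD, 4.15% ± 0.282 with amiodarone, 0.345% ± 0.0463 in LB cells with DMSO and 0.1903% ± 0.0435 in A549 cells (SD, n = 3 each). For each of the 4 comparisons the ranges of this share did not overlap, which gave the smallest two-sided exact permutation p that 3 against 3 allows, 0.1 (0.16 adjusted over 64 such tests of isozyme shares). Ranges without overlap were common among the 16 isozyme shares. They numbered 9 for LB against A549 cells, 9 for amiodarone, 10 for the addition of HPbCD and 12 for both agents against DMSO.

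**Figure D1:**
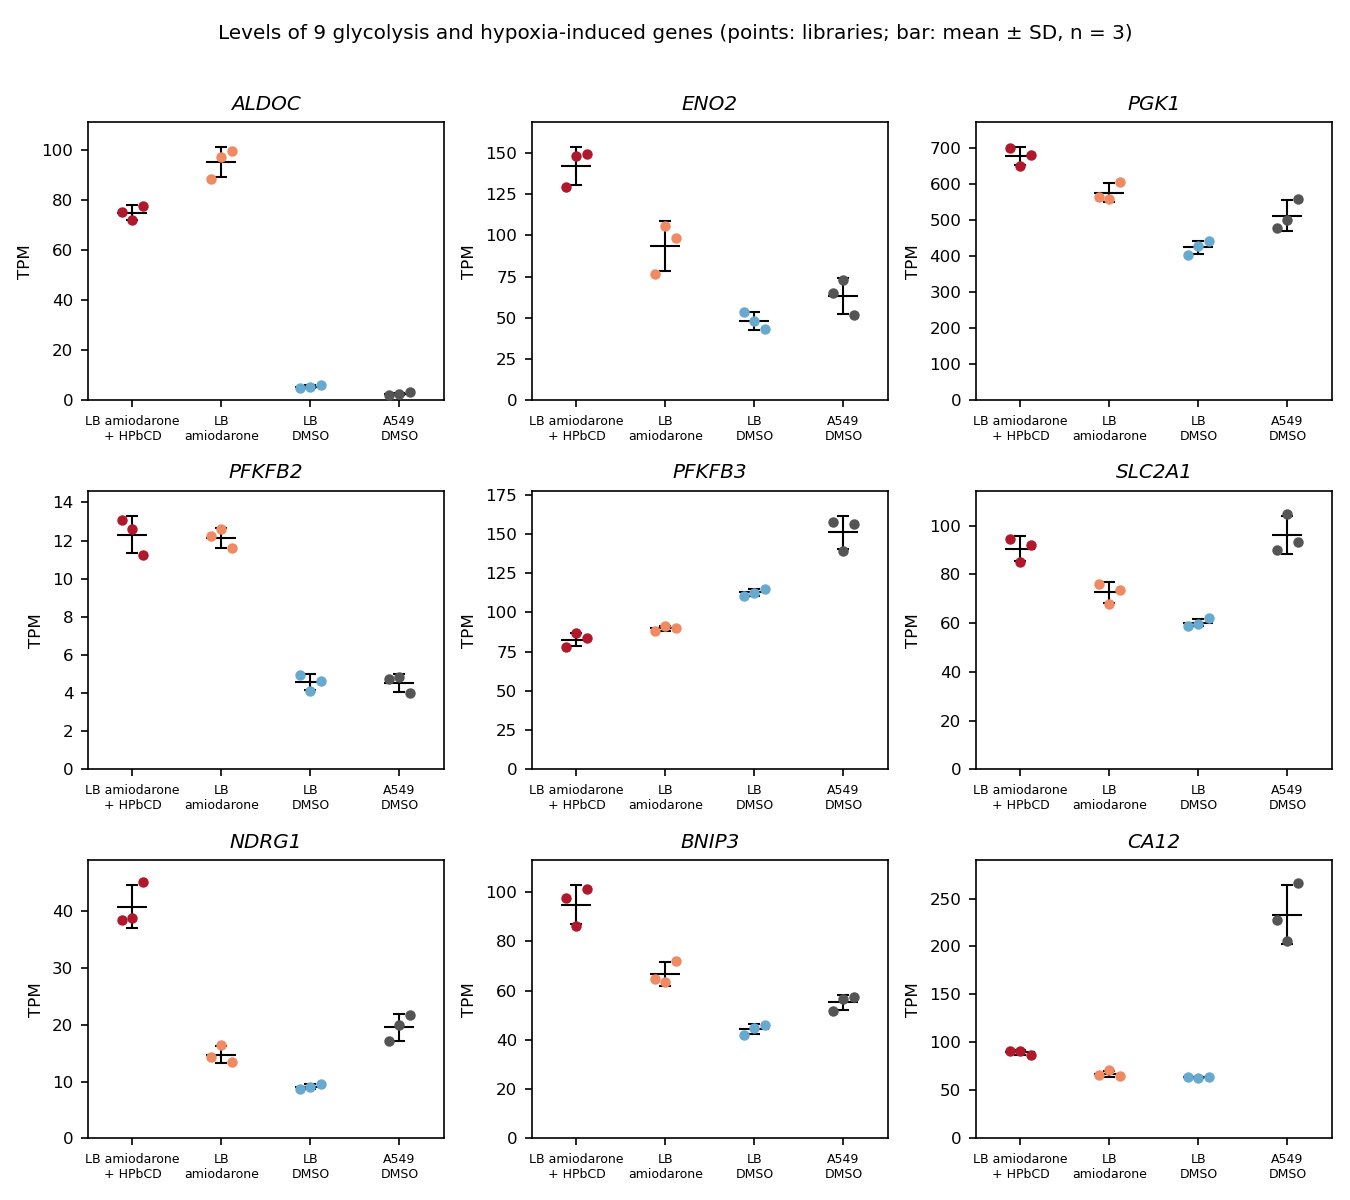
Levels in TPM of 9 members by group, with 1 point per library and bars for mean ± SD (n = 3). ALDOC stands at 71.9 TPM or more in amiodarone-treated libraries, against 6.03 TPM or less in DMSO libraries, NDRG1 is highest with amiodarone plus HPbCD, and CA12 is highest in A549 cells.

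With amiodarone, genes of all 3 kinds rose. Against LB cells with DMSO, 18 of the 40 tested members rose and 1 fell (adjusted p under 0.05), where 4.9% of all tested genes rose and 3.72% fell. Of the enzymes 5 of 17 rose and 0 fell, with a median log2 difference of 0.11. Of the regulators and transporters 5 of 7 rose and 1 fell, with a median of 0.53. Of the hypoxia targets 8 of 16 rose and 0 fell, with a median of 0.36. At an unadjusted p under 0.05 (limma) the 40 members had 26 higher and 1, PFKFB3, lower. The median over all tested genes was -0.003. The difference between enzymes and hypoxia targets was not tested.

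The enzymes that rose with amiodarone were ALDOC, ALDOA, PGK1, ENO2 and LDHA. ENO2, the neuron-type enolase at chr12:6913745-6923698, had 129, 148 and 149 TPM with amiodarone plus HPbCD, 76.4, 105 and 98.1 TPM with amiodarone, 53.8, 47.9 and 43.04 TPM in LB cells with DMSO and 64.7, 73.1 and 51.9 TPM in A549 cells. None of the LB groups overlapped another. The log2 difference was 0.93 ± 0.14 for amiodarone against DMSO (adjusted p = 0.00135, limma) and 1.54 ± 0.14 for amiodarone plus HPbCD against DMSO (adjusted p = 1.01e-05, limma).

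ENO1, the broadly expressed enolase, averaged 2295 ± 45.1 TPM with amiodarone plus HPbCD, 2411 ± 57.7 TPM with amiodarone, 2296 ± 14.01 TPM in LB cells with DMSO and 2252 ± 47.2 TPM in A549 cells (SD, n = 3 each). It passed the test in none of the 4 comparisons. The 95% interval of its log2 difference was -0.00 to 0.14 for amiodarone against DMSO and -0.07 to 0.07 for amiodarone plus HPbCD against DMSO. ENO2 made up 5.83% ± 0.536 of the ENO1 and ENO2 total with amiodarone plus HPbCD, 3.73% ± 0.661 with amiodarone, 2.06% ± 0.228 in LB cells with DMSO and 2.73% ± 0.413 in A549 cells. ENO3, the muscle form, averaged 20.03, 19.5, 21.02 and 27.9 TPM in the same order of groups and was not called.

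PGK1, phosphoglycerate kinase, had 701, 651 and 681 TPM with amiodarone plus HPbCD, 563, 558 and 606 TPM with amiodarone, 404, 428 and 441 TPM in LB cells with DMSO and 478, 501 and 559 TPM in A549 cells. The LB groups again did not overlap, and the log2 difference was 0.44 ± 0.06 for amiodarone (adjusted p = 0.000751, limma) and 0.67 ± 0.06 for amiodarone plus HPbCD (adjusted p = 1.01e-05, limma), both against LB cells with DMSO. LDHA, which turns pyruvate into lactate, averaged 2313 ± 116 TPM with amiodarone plus HPbCD, 2199 ± 61.8 TPM with amiodarone, 1977 ± 40.7 TPM in LB cells with DMSO and 2368 ± 60.4 TPM in A549 cells. LDHB, its partner subunit, was not called in any comparison and made up 32.7 to 40.4% of the LDHA and LDHB total in all libraries.

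The remaining enzymes did not pass with amiodarone. HK1, HK2, GPI, PFKL, PFKM, PFKP, TPI1, GAPDH, PGAM1, PKM and LDHB, which carry out steps from hexokinase to lactate dehydrogenase, had log2 differences of at most 0.16 in size against LB cells with DMSO. GAPDH, the most abundant member, averaged 8957 ± 219.9 TPM with amiodarone plus HPbCD, 8619 ± 324 TPM with amiodarone and 8384 ± 60.8 TPM in LB cells with DMSO. The 17 enzymes together summed to 23815 ± 506 TPM with amiodarone plus HPbCD, 23111 ± 568 TPM with amiodarone, 21219 ± 105 TPM in LB cells with DMSO and 20989 ± 414 TPM in A549 cells.

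Among the regulators, the bifunctional enzymes that set fructose-2,6-bisphosphate, the activator of phosphofructokinase, moved in opposite directions. PFKFB2 had 13.1, 12.6 and 11.2 TPM with amiodarone plus HPbCD, 12.2, 12.6 and 11.6 TPM with amiodarone, 4.97, 4.12 and 4.63 TPM in LB cells with DMSO and 4.72, 4.84 and 3.99 TPM in A549 cells. The drug groups overlapped each other and lay above both DMSO groups, with log2 differences of 1.24 ± 0.10 (adjusted p = 6.15e-06, limma) and 1.26 ± 0.10 (adjusted p = 3.20e-06, limma) for amiodarone and for amiodarone plus HPbCD, each against LB cells with DMSO.

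PFKFB3, the isoform with the strongest kinase bias and a known hypoxia target, was the 1 member that fell. It had 77.9, 86.6 and 83.5 TPM with amiodarone plus HPbCD, 88.03, 91.2 and 90.3 TPM with amiodarone, 111, 112 and 115 TPM in LB cells with DMSO and 157, 139 and 156 TPM in A549 cells. No library of one of these groups overlapped another group. The log2 difference was -0.32 ± 0.06 for amiodarone against DMSO (adjusted p = 0.00406, limma) and -0.44 ± 0.06 for amiodarone plus HPbCD against DMSO (adjusted p = 0.000197, limma). PFKFB3 still made up most of the 3-gene total, with 78.96% ± 2.48 with amiodarone plus HPbCD, 82.2% ± 0.609 with amiodarone, 92.3% ± 0.574 in LB cells with DMSO and 94.2% ± 0.7898 in A549 cells.

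The glucose transporter SLC2A1 averaged 90.5 ± 5.06 TPM with amiodarone plus HPbCD, 72.6 ± 4.22 TPM with amiodarone, 60.2 ± 1.598 TPM in LB cells with DMSO and 96.1 ± 7.72 TPM in A549 cells. SLC2A3, a transporter of higher glucose affinity, averaged 48.4 ± 3.36 TPM, 50.3 ± 3.46 TPM, 26.9 ± 1.16 TPM and 20.2 ± 2.4 TPM in the same order of groups. Its level is uncertain, since pseudogene copies held 9.50 to 19.3% of the summed value and SLC2A14 is near-identical. SLC2A1 rose by 0.26 and SLC2A3 by 0.88 with amiodarone on the log2 scale. PDK1, a kinase that switches off pyruvate dehydrogenase, had 5.14, 5.29 and 5.25 TPM with amiodarone plus HPbCD, 3.16, 3.62 and 4.61 TPM with amiodarone, 2.45, 2.1 and 1.65 TPM in LB cells with DMSO and 1.52, 1.82 and 2.1 TPM in A549 cells. PDK1 rose by 0.64 and PDK3, a second such kinase, by 0.53 with amiodarone against DMSO.

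**Figure D2:**
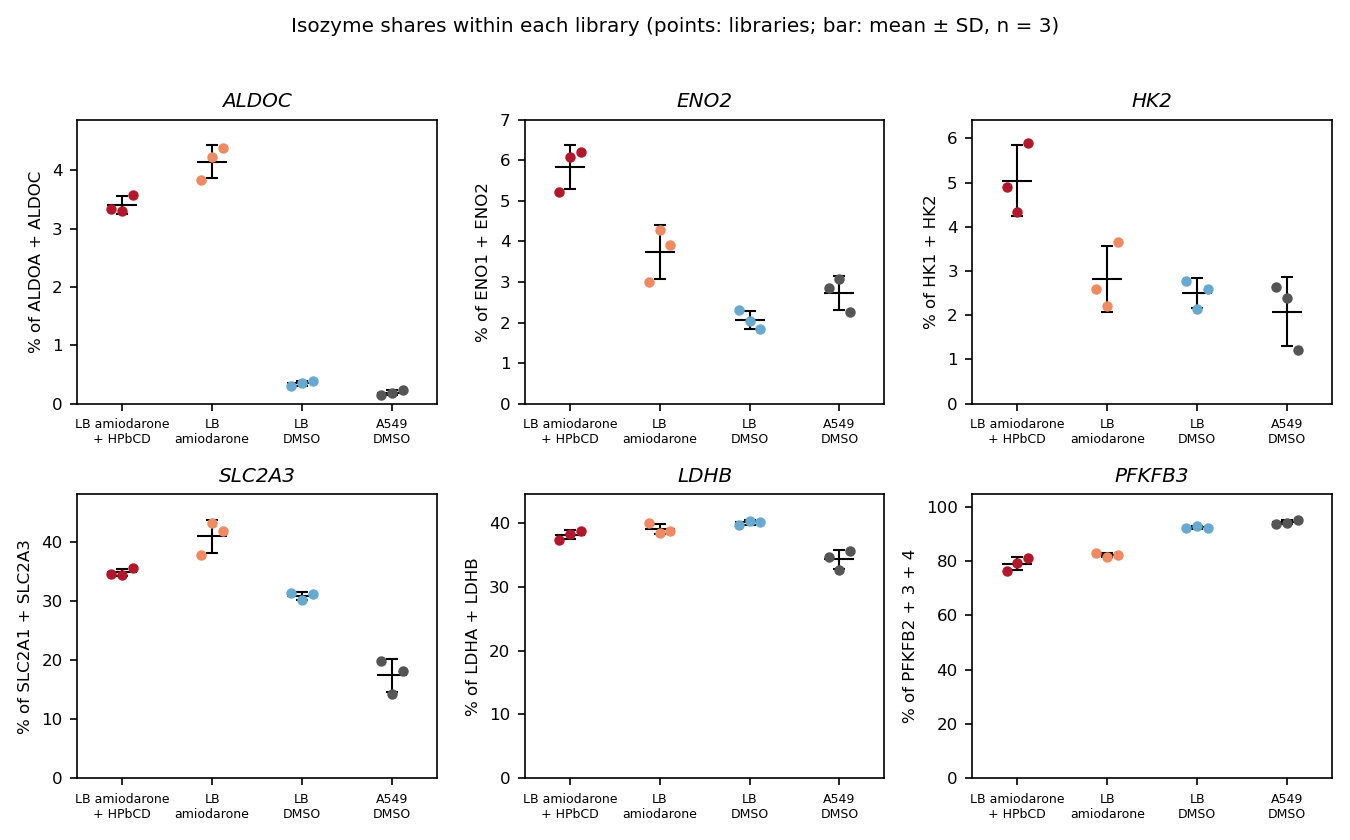
Shares of isozymes within each library, as percent of the summed TPM of the genes named on each vertical axis, by group, with 1 point per library and bars for mean ± SD (n = 3). ALDOC and ENO2 take larger shares in drug-treated LB cells, and PFKFB3 a smaller one.

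The hypoxia targets that rose with amiodarone were BNIP3, BNIP3L, NDRG1, P4HA1, VEGFA, MXI1, ERO1A and DDIT4. BNIP3, at chr10:131966455-131982013, and BNIP3L are mitophagy receptors of the mitochondrial outer membrane. BNIP3 had 97.5, 86.1 and 101 TPM with amiodarone plus HPbCD, 64.6, 63.4 and 72.2 TPM with amiodarone, 41.9, 45.01 and 45.97 TPM in LB cells with DMSO and 51.9, 56.5 and 57.5 TPM in A549 cells, and no LB group overlapped another. BNIP3L averaged 87.3 ± 3.48 TPM, 75.95 ± 6.57 TPM, 46.1 ± 3.27 TPM and 46.9 ± 4.61 TPM in the same order of groups. With amiodarone BNIP3 rose by 0.58 ± 0.07 and BNIP3L by 0.71 ± 0.08 on the log2 scale.

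P4HA1, a collagen prolyl hydroxylase subunit, averaged 46.8 ± 4.62 TPM with amiodarone plus HPbCD, 42.6 ± 5.09 TPM with amiodarone, 26.2 ± 1.21 TPM in LB cells with DMSO and 23.7 ± 2.43 TPM in A549 cells, and rose by 0.67 with amiodarone. VEGFA, the vessel growth factor, averaged 51.4 ± 3.14 TPM, 42.96 ± 2.37 TPM, 33.2 ± 0.845 TPM and 24.2 ± 0.6302 TPM, with no overlap between groups and a rise of 0.36 with amiodarone. ERO1A, an oxidase of disulfide formation, rose by 0.37, DDIT4, an inhibitor of mTORC1, by 0.41 and MXI1, a MYC antagonist, by 0.39. P4HA2, ADM, CA12, EGLN1, EGLN3, ANKRD37, KDM3A and HILPDA were not called with amiodarone, with log2 differences of 0.02 to 0.45.

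Of the 19 members called with amiodarone, 13 held without each of the 12 libraries. LDHA lost its call without any 1 of the amiodarone or LB DMSO libraries or without amiodarone plus HPbCD replicate 3 (adjusted p 0.0631 to 0.144, limma). SLC2A1 lost it without amiodarone replicates 1 or 3 or any LB DMSO library (0.0636 to 0.103). PDK1 lost it without amiodarone replicate 3 (0.0685) or LB DMSO replicate 3 (0.0731). PDK3 lost it without any 1 of the amiodarone or LB DMSO libraries or amiodarone plus HPbCD replicate 3 (0.0530 to 0.129). MXI1 lost it without any amiodarone plus HPbCD library, amiodarone replicates 2 or 3, LB DMSO replicates 1 or 2, or A549 replicates 1 or 3 (0.0532 to 0.163). DDIT4 lost it without amiodarone replicates 1 or 3 or LB DMSO replicates 2 or 3 (0.0783 to 0.0958).

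Adding HPbCD to amiodarone raised a smaller group, led by NDRG1. Against amiodarone alone, 8 of 40 members rose and none fell, where 2.71% of all tested genes rose and 1.36% fell, and at an unadjusted p under 0.05 (limma) 18 were higher and 2 lower. The 8 were the enzymes HK2 and ENO2, the transporter SLC2A1, and the hypoxia targets BNIP3, NDRG1, VEGFA, CA12 and KDM3A. The median log2 difference was 0.06 for enzymes, 0.02 for regulators and transporters, 0.19 for hypoxia targets and -0.01 for all tested genes. This comparison and the one of amiodarone with DMSO share the amiodarone libraries, so their values are set side by side only.

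NDRG1, a stress-induced gene with a role in lipid and vesicle traffic, had 38.4, 38.8 and 45.1 TPM with amiodarone plus HPbCD, 14.4, 16.4 and 13.4 TPM with amiodarone, 8.69, 9.05 and 9.53 TPM in LB cells with DMSO and 17.1, 19.9 and 21.7 TPM in A549 cells. The libraries with amiodarone plus HPbCD lay far above the other 9, and no group overlapped another. The log2 difference was 1.41 ± 0.10 for the addition of HPbCD (adjusted p = 1.17e-05, limma), 0.64 ± 0.10 for amiodarone against DMSO (adjusted p = 0.00239) and 2.05 ± 0.10 for both agents against DMSO (adjusted p = 7.13e-08). BNIP3 differed by 0.50 ± 0.07 with HPbCD (adjusted p = 0.00233, limma). NDRG1 and BNIP3 were the 2 of the 8 calls that held without each library.

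CA12, a membrane carbonic anhydrase that regulates pH, had 91.1, 90.8 and 86.97 TPM with amiodarone plus HPbCD, 65.96, 71.1 and 65.3 TPM with amiodarone, 64.3, 63.2 and 63.5 TPM in LB cells with DMSO and 227, 206 and 266 TPM in A549 cells. It rose by 0.40 with HPbCD, a call lost without amiodarone plus HPbCD replicate 1 (adjusted p = 0.0502, limma) or amiodarone replicate 3 (0.0509). HK2, the inducible hexokinase, had 2.06, 1.89 and 2.33 TPM with amiodarone plus HPbCD, 0.89, 0.81 and 1.31 TPM with amiodarone, 0.82, 0.69 and 0.86 TPM in LB cells with DMSO and 0.75, 0.69 and 0.35 TPM in A549 cells. Its mean over the other 3 groups was 0.797 TPM, so it entered the test through the group with HPbCD. Without HK2, 7 of 39 members rose with HPbCD. CA9, the other carbonic anhydrase of the set, was not tested and had 0.75, 0.4 and 0.7 TPM with amiodarone plus HPbCD and 0.24, 0.51 and 0.5 TPM with amiodarone. In LB cells with DMSO CA9 was listed at 0 in 2 libraries and at 0.05 TPM in the other, and A549 cells had 1.27, 1.31 and 1.5 TPM.

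HK2 lost its call without any 1 of the 9 LB libraries or A549 replicate 1 (adjusted p 0.0509 to 0.164, limma). ENO2 lost its call without any amiodarone plus HPbCD library or amiodarone replicates 1 or 3 (0.0506 to 0.103). SLC2A1 lost it without amiodarone plus HPbCD replicates 1 or 3 or amiodarone replicates 2 or 3 (0.0571 to 0.0946). VEGFA lost it without amiodarone plus HPbCD replicates 1 or 3, amiodarone replicates 1 or 2, or any LB DMSO library (0.0539 to 0.151). KDM3A, a histone demethylase, lost it without amiodarone plus HPbCD replicates 1 or 3 or any amiodarone library (0.0590 to 0.136). HILPDA, a lipid droplet protein, had 31.8, 29.3 and 36.9 TPM with amiodarone plus HPbCD, 45.3, 46.7 and 50.9 TPM with amiodarone, 40, 42.1 and 42.4 TPM in LB cells with DMSO and 35.9, 20.8 and 35.96 TPM in A549 cells. The HPbCD libraries lay below the other amiodarone libraries, and the difference of -0.53 ± 0.17 did not pass (adjusted p = 0.103, limma).

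Both agents together raised most of the set relative to LB cells with DMSO. Of 40 members 28 rose and 1, PFKFB3, fell, where 10.1% of all tested genes rose and 7.81% fell. Without HK2 the count was 27 of 39. Of the enzymes 10 of 17 rose, namely HK1, HK2, PFKP, ALDOA, ALDOC, PGK1, PGAM1, ENO2, PKM and LDHA, with a median log2 difference of 0.23. Of the regulators and transporters 6 of 7 rose, with a median of 0.83, and of the hypoxia targets 12 of 16 rose, with a median of 0.52. The median over all tested genes was -0.02. The comparisons against DMSO share the LB DMSO libraries.

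The hypoxia targets that passed with both agents were those called with amiodarone except MXI1, and further P4HA2, ADM, CA12, EGLN3 and KDM3A. PFKFB4, a bifunctional enzyme, averaged 9.71 ± 1.51 TPM with amiodarone plus HPbCD, 7.35 ± 1.07 TPM with amiodarone and 4.77 ± 0.511 TPM in LB cells with DMSO, and differed by 0.89 ± 0.16 with both agents against DMSO (adjusted p = 0.00212, limma). ADM, the vasodilator peptide adrenomedullin, averaged 148 ± 5.58 TPM, 111 ± 12.9 TPM and 109 ± 13.8 TPM in the same order. EGLN1, the main oxygen-sensing prolyl hydroxylase, was at 50.4 ± 2.29 TPM with amiodarone plus HPbCD, against 43.1 ± 1.93 TPM in LB cells with DMSO, and did not pass (adjusted p = 0.0531, limma). ANKRD37, an ankyrin-repeat protein, was at 2.13 to 4.65 TPM in all libraries and was never called.

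Of the 29 calls with both agents, 24 held without each library. PFKP lost its call without any 1 of the 6 libraries compared (adjusted p 0.0642 to 0.0859, limma). PGAM1 lost it without amiodarone plus HPbCD replicates 1 or 3 or LB DMSO replicates 1 or 2 (0.0780 to 0.109). PDK3 lost it without any 1 of the 6 libraries compared or amiodarone replicates 1 or 3 (0.05002 to 0.147). ADM lost it without any amiodarone plus HPbCD library or LB DMSO replicates 1 or 3 (0.0668 to 0.130). EGLN3, an inducible prolyl hydroxylase, lost it without amiodarone plus HPbCD replicates 2 or 3, LB DMSO replicates 2 or 3, or amiodarone replicate 2 (0.0558 to 0.160).

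**Figure D3:**
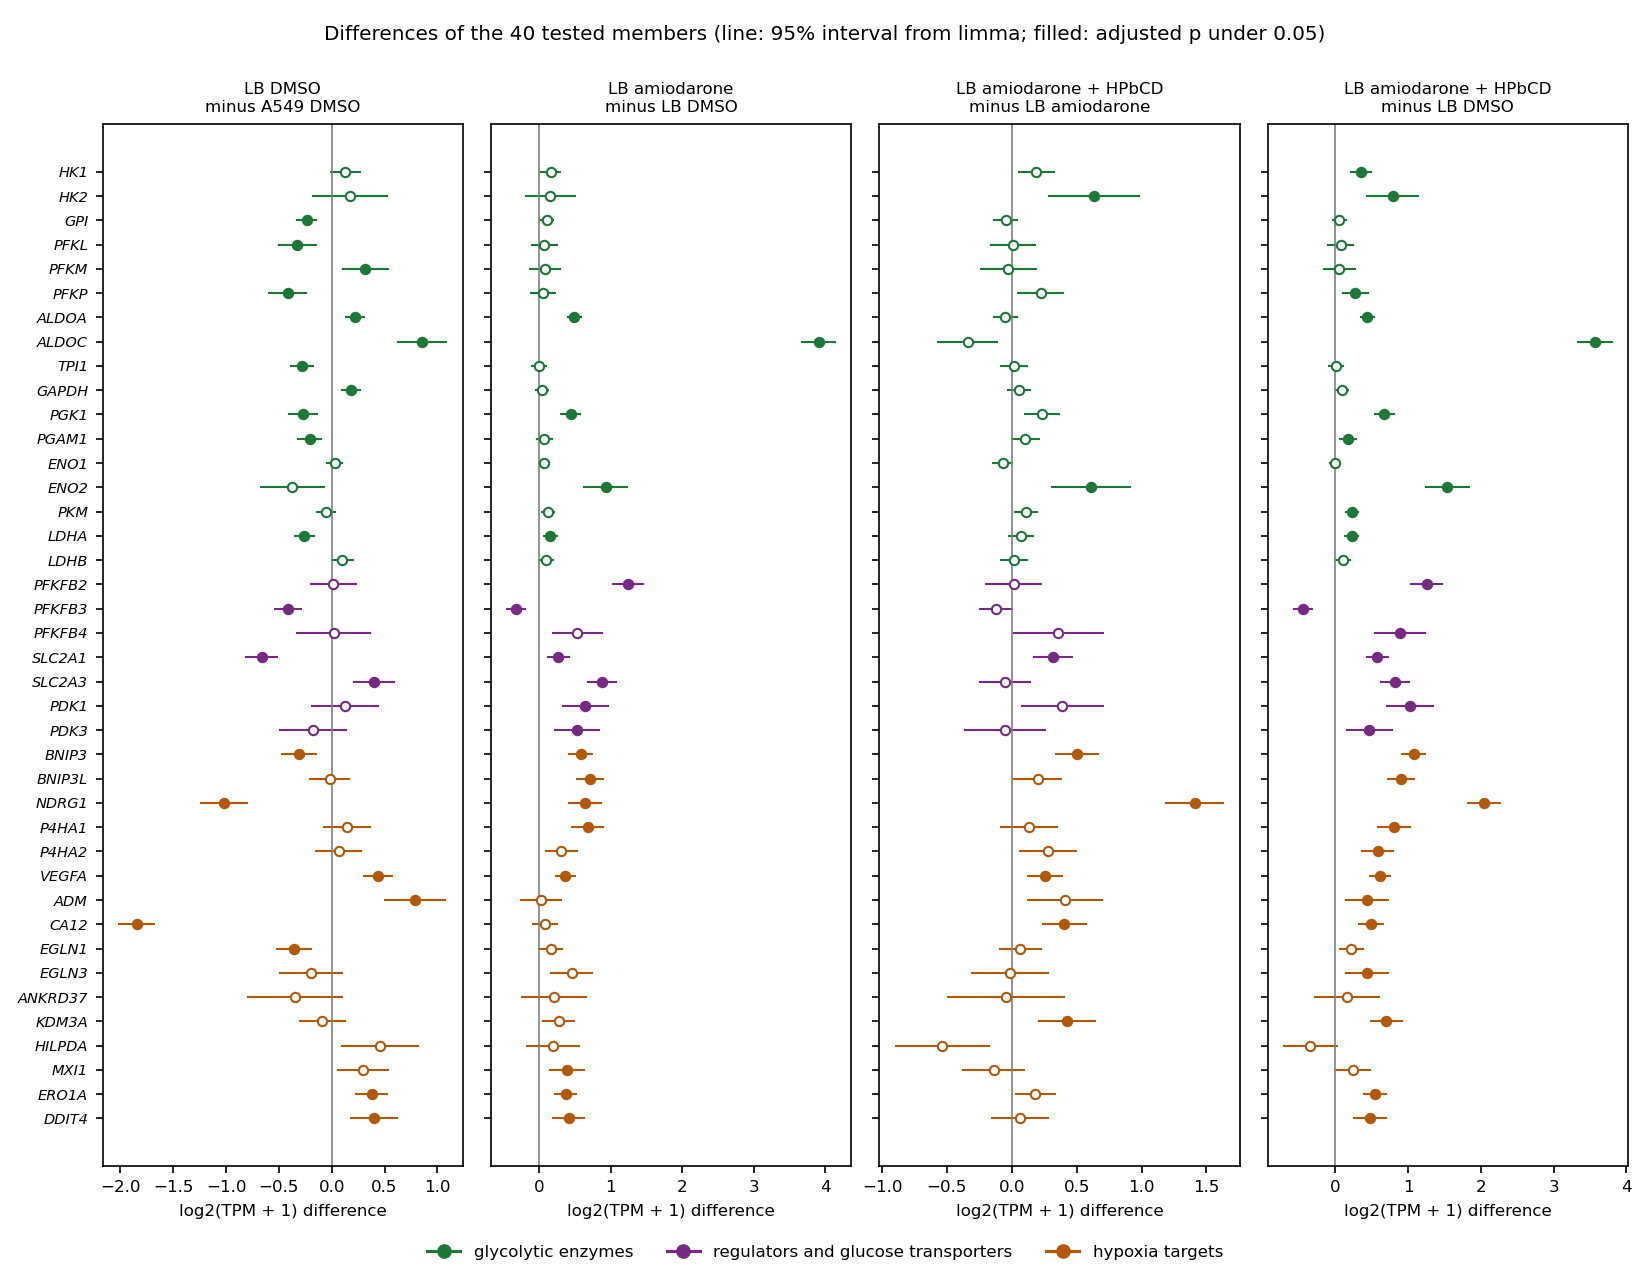
Differences in log2(TPM + 1) of the 40 tested members in the 4 comparisons, with 95% intervals from limma and filled points for adjusted p under 0.05; horizontal axes differ between panels. ALDOC lies farthest right in both comparisons with LB DMSO and NDRG1 in the comparison of HPbCD plus amiodarone with amiodarone, and the filled GAPDH point of LB against A549 cells moves to -0.02 with quantile normalization.

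**Figure D4:**
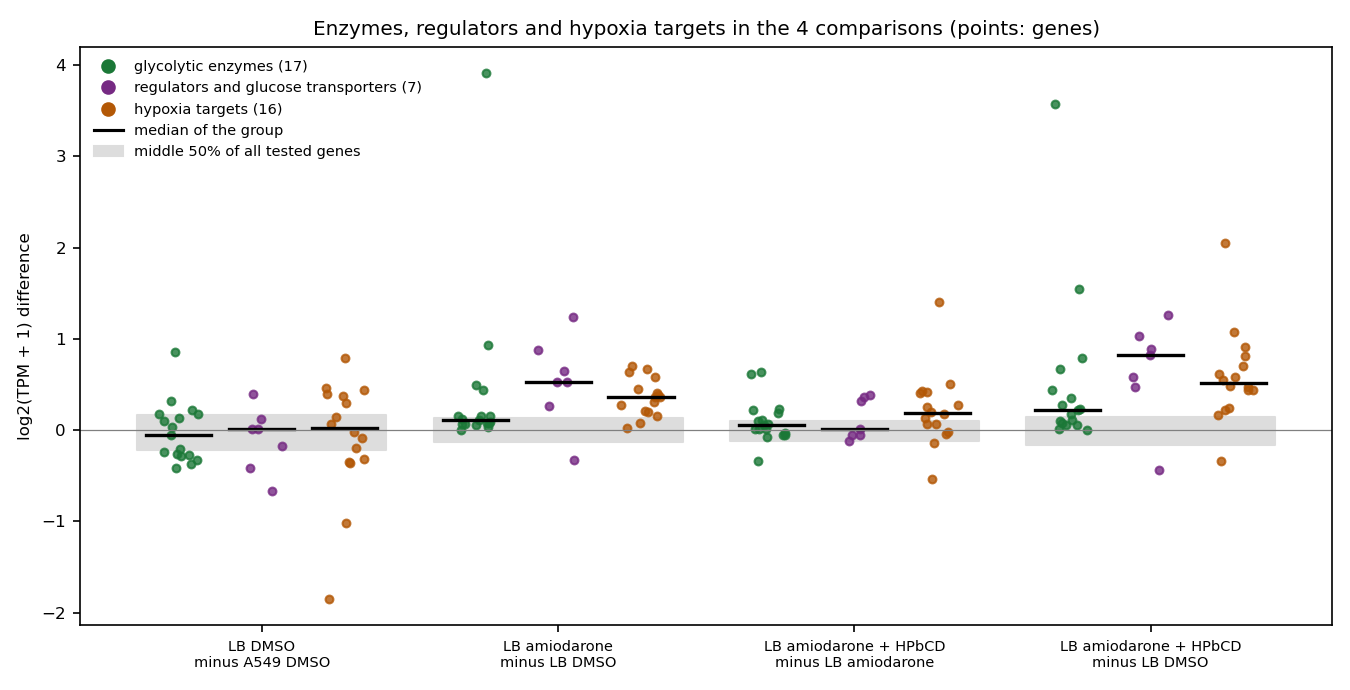
The same differences with 1 point per gene, grouped into 17 enzymes, 7 regulators and transporters and 16 hypoxia targets, with a bar at each median and a grey band over the middle 50% of all 13968 tested genes. With amiodarone plus HPbCD against LB DMSO the medians are 0.23, 0.83 and 0.52.

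Between the vehicle-treated lines the set went in both directions. In LB cells with DMSO against A549 cells with DMSO, 9 of 40 members were higher and 13 lower, where 14.2% of all tested genes were higher and 18.2% lower. Of the enzymes 4 were higher and 7 lower, of the regulators and transporters 1 and 2, and of the hypoxia targets 4 and 4. The median log2 differences were -0.05, 0.02 and 0.02, and -0.04 over all tested genes. The epithelial and alveolar marker sums given above also separated the lines, and their part in these differences was not tested. The lower enzymes were GPI, PFKL, PFKP, TPI1, PGK1, PGAM1 and LDHA, which fell by 0.21 to 0.42 on the log2 scale. PFKM, the muscle phosphofructokinase, was higher at 43.4 ± 6.12 TPM in LB cells, against 34.5 ± 3.45 TPM in A549 cells. That call was lost without LB DMSO replicate 2 (adjusted p = 0.110, limma) or A549 replicate 2 (0.0996). GAPDH was higher by 0.18 ± 0.04 (adjusted p = 0.00371), but under quantile normalization the difference was -0.02 (adjusted p = 0.941, limma). The GAPDH call was also lost without a filter.

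The members that differed most between the lines were the hypoxia targets CA12 and NDRG1. Both were lower in LB cells, with log2 differences of -1.85 ± 0.08 for CA12 (adjusted p = 4.09e-09, limma) and -1.02 ± 0.10 for NDRG1 (adjusted p = 9.61e-06). BNIP3 and EGLN1 were lower too, with differences of -0.31 and -0.36. ADM was higher in LB cells, at 105, 125 and 98.1 TPM in LB libraries, against 56.1, 78.99 and 55.2 TPM in A549 libraries, and so were VEGFA (0.44), ERO1A (0.38) and DDIT4 (0.40). SLC2A1 was lower (-0.66) and SLC2A3 higher (0.40). SLC2A3 made up 30.8% ± 0.648 of the SLC2A1 and SLC2A3 total in LB cells and 17.4% ± 2.81 in A549 cells, within the uncertainty of its copies. For NDRG1, BNIP3, PGK1, SLC2A1 and CA12 the level in LB cells with amiodarone plus HPbCD stood, in that order of genes, at 40.8, 94.9, 678, 90.5 and 89.6 TPM, against 19.6, 55.3, 513, 96.1 and 233 TPM in A549 cells.

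The factors upstream of these targets differed among themselves. Of 11 listed regulators of the pathway 10 were tested, and 1 (EPAS1) rose with amiodarone, 2 (EPAS1 and CITED2) with the addition of HPbCD and 3 (EPAS1, CITED2 and EGLN2, a prolyl hydroxylase) with both agents, where 4.9%, 2.71% and 10.1% of all tested genes rose in the same order of comparisons. The CITED2 call with the addition of HPbCD was lost without any amiodarone plus HPbCD library or amiodarone replicates 1 or 3 (adjusted p 0.0551 to 0.0838, limma), which left 1. The EGLN2 call with both agents was lost without amiodarone plus HPbCD replicate 2 or LB DMSO replicates 2 or 3 (0.0528 to 0.0638). In these 3 drug comparisons 0 fell, and at an unadjusted p under 0.05 (limma) 0, 1 and 1 were lower. EPAS1, which encodes HIF-2 alpha, had 129, 141 and 122 TPM with amiodarone plus HPbCD, 103, 106 and 101 TPM with amiodarone, 73.6, 75.5 and 80.5 TPM in LB cells with DMSO and 58.1, 57.7 and 55.5 TPM in A549 cells. No group overlapped another, and EPAS1 was called higher in all 4 comparisons, by 0.41 for LB against A549 cells, 0.43 for amiodarone, 0.33 for the addition of HPbCD and 0.76 for both agents. HIF1A, which encodes HIF-1 alpha, averaged 220.1 ± 26.01 TPM, 221 ± 8.14 TPM, 207 ± 9.28 TPM and 216 ± 13.01 TPM, with intervals of -0.07 to 0.26 for amiodarone and -0.09 to 0.25 for both agents against DMSO, and was not called in any comparison. Control of HIF-1 alpha acts mainly on the protein, which these data do not measure. ARNT, the shared partner subunit, was at 17.3 to 20.8 TPM in all libraries, VHL at 13.7 to 19.6 TPM and HIF1AN, the asparagine hydroxylase, at 22.7 to 29.4 TPM, none called. CITED2, a target that competes with the factors for their coactivator, averaged 32.4 ± 1.31 TPM with both agents, against 15.98 ± 2.51 TPM in LB cells with DMSO, a rise of 0.98.

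A second list of 32 hypoxia targets, of which 28 were tested, had 14 genes higher and 0 lower with amiodarone, 3 and 0 with the addition of HPbCD, 16 and 0 with both agents against DMSO, and 8 and 5 in LB against A549 cells. Of all tested genes 4.9% were higher and 3.72% lower with amiodarone, 2.71% and 1.36% with the addition of HPbCD, 10.1% and 7.81% with both agents, and 14.2% and 18.2% in LB against A549 cells, so the 5 lower genes of the list in LB cells are near the share of all genes. Its medians were 0.23, 0.13 and 0.38 in the 3 drug comparisons, and at an unadjusted p under 0.05 (limma) it had 15, 7 and 19 genes higher and 0 lower. The 3 genes called with the addition of HPbCD were STC1, a secreted glycoprotein, IGFBP3, an IGF carrier, and AK4, a mitochondrial adenylate kinase. The IGFBP3 call was lost without amiodarone plus HPbCD replicates 1 or 3 or amiodarone replicates 1 or 3 (adjusted p 0.0559 to 0.0796), and the AK4 call without amiodarone plus HPbCD replicates 1 or 2 or amiodarone replicates 1 or 2 (0.0663 to 0.0933). With amiodarone, INSIG2 lost its call without any amiodarone or LB DMSO library (adjusted p 0.0586 to 0.131, limma). STC1 lost it without any LB DMSO library or replicates 2 or 3 of amiodarone or amiodarone plus HPbCD (0.0526 to 0.129). AK4 lost it without amiodarone replicate 3 or LB DMSO replicate 1 (0.0543 to 0.0570). With both agents, INSIG2 lost it without amiodarone plus HPbCD replicate 3 or LB DMSO replicate 1 (0.0547 to 0.0580). MIR210HG, the host transcript of a hypoxia-induced microRNA, had 14.9, 17.2 and 22.6 TPM with amiodarone plus HPbCD, 6.89, 13.5 and 16.7 TPM with amiodarone, 2.48, 4.13 and 4.07 TPM in LB cells with DMSO and 9.38, 4.26 and 6.84 TPM in A549 cells. It rose by 1.49 ± 0.30 with amiodarone (adjusted p = 0.0106, limma) and by 2.08 ± 0.30 with both agents (adjusted p = 0.000566). STC2, a relative of STC1, averaged 49.3 ± 2.14 TPM, 43.6 ± 4.603 TPM, 24.02 ± 2.11 TPM and 15.5 ± 3.36 TPM in the order of amiodarone plus HPbCD, amiodarone, LB DMSO and A549 DMSO. Between the lines IGFBP3 was lower in LB cells (-2.97), and ANGPTL4, a lipase inhibitor, was higher (2.59).

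Among genes that act beside glycolysis, SLC16A3 and PDP1 were higher in all 4 comparisons. SLC16A3, the lactate exporter that is itself a hypoxia target, had 133, 138 and 147 TPM with amiodarone plus HPbCD, 97.7, 98.05 and 102 TPM with amiodarone, 59.5, 69.3 and 66.2 TPM in LB cells with DMSO and 40.8, 42.2 and 45.8 TPM in A549 cells, without overlap. PDP1, the phosphatase that switches pyruvate dehydrogenase on, averaged 34.3 ± 2.33 TPM, 22.9 ± 0.425 TPM, 15.1 ± 1.496 TPM and 6.51 ± 0.295 TPM in the same order. Over the 15 genes of pyruvate and lactate handling 4 rose and 0 fell with amiodarone (5 and 1 at an unadjusted p under 0.05, limma), 2 rose and 1 fell with the addition of HPbCD (2 and 2 unadjusted), and 3 rose and 3 fell with both agents (4 and 4 unadjusted). The shares of all tested genes were those given above for the same comparisons, 4.9% and 3.72%, 2.71% and 1.36%, and 10.1% and 7.81%. The 1 that fell with HPbCD was PDHB, a pyruvate dehydrogenase subunit, a call lost without amiodarone plus HPbCD replicates 2 or 3 or amiodarone replicate 3 (adjusted p 0.0647 to 0.0812). Of 7 tested genes of the pentose phosphate pathway 0 were called with amiodarone and 0 with the addition of HPbCD (0 and 3 at an unadjusted p under 0.05, limma). TKT, a transketolase of this pathway, was lower with both agents, with a difference of -0.21. Its call was lost without any amiodarone plus HPbCD library or LB DMSO replicates 1 or 3 (adjusted p 0.0539 to 0.112, limma).

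Of 16 further glycolytic isozymes and regulators 5 were tested and HKDC1, a hexokinase-domain protein, was the 1 called in the drug comparisons. It rose with amiodarone, with the addition of HPbCD and with both agents. Of all tested genes 4.9%, 2.71% and 10.1% rose and 3.72%, 1.36% and 7.81% fell in that order. With 5 genes tested, 1 call says little of the list. HKDC1 averaged 37.6 ± 2.21 TPM with amiodarone plus HPbCD, 28.03 ± 2.04 TPM with amiodarone, 18.1 ± 1.81 TPM in LB cells with DMSO and 45.1 ± 6.38 TPM in A549 cells. Its rise of 0.41 with the addition of HPbCD was lost without any amiodarone-treated library, LB DMSO replicate 1 or A549 replicate 1 (adjusted p 0.0559 to 0.148, limma). PGK2 and PGAM4 were listed at 0 in all 12 libraries. Of 7 gluconeogenic genes 3 were tested, and FBP1 and G6PC were listed at 0 in all 12 libraries. Of the 3 tested, 1 rose and 0 fell with amiodarone, 0 and 1 with the addition of HPbCD, and 0 and 0 with both agents. PCK2, the mitochondrial enzyme that makes phosphoenolpyruvate, averaged 46.4 ± 2.83 TPM with amiodarone plus HPbCD, 75.4 ± 4.07 TPM with amiodarone, 54.3 ± 3.06 TPM in LB cells with DMSO and 34.4 ± 5.87 TPM in A549 cells. It was lower with the addition of HPbCD (-0.69 ± 0.10, adjusted p = 0.002204, limma) and higher with amiodarone against DMSO (0.47 ± 0.10, adjusted p = 0.0143). The rise with amiodarone was lost without amiodarone replicate 1 or LB DMSO replicates 2 or 3 (0.0514 to 0.0553).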

How the data were processed

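The authors deposited 1 table of TPM (scaled for transcript length and library total) with 1 column per library. Per the submitters' processing notes, they used STAR 2.7.3a and RSEM 1.3.1 with GRCh38 as the build. For the annotation, no release is given in these sources. Per the labels' protocols, libraries were stranded and made from mRNA. Of 57189 rows, 37 held no value. RSEM divides reads shared between similar genes, so genes with near-identical copies are less certain. TPM keep no depth, so no counting interval can be given and no count test was used.

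Values were transformed as log2(TPM + 1), which understates changes of low genes. Genes averaging 1 TPM or more were fitted with limma 3.58.1 (R 4.3.3), all 4 groups together, 8 residual degrees of freedom, empirical Bayes with trend. The p-values, two-sided, had Benjamini-Hochberg adjustment over all 13968 genes within each comparison, with a threshold of 0.05. The fit was tested on simulated data. Isozyme shares were compared by two-sided exact permutation tests (scipy 1.17.1).

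All 41 members could be named, and of the other lists up to 4 genes per comparison with the largest called differences and non-overlapping groups, plus HIF1A, EPAS1, ARNT, VHL, HIF1AN and EGLN2. Isozymes of members, genes at 0 and marker genes named beside them were picked after their values were seen. The members and lists were chosen with earlier results of these data known. Positions are from GENCODE 29 and promoters from RefSeq, matched by symbol. Alternatives were pseudocounts of 0.1 and 5, no filter, a filter at 5 TPM, quantile normalization, median-of-ratios scaling, dropping mitochondrially encoded genes, other variance settings, a fit of the 2 groups alone, a replicate block, and each library left out in turn.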

Additional observations from a re-analysis of the deposited data

How the results depend on the processing

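The number of members called higher was 9, 18, 8 and 28 for LB against A549 cells, amiodarone against DMSO, amiodarone plus HPbCD against amiodarone, and both agents against DMSO. Without a filter the counts were 7, 13, 4 and 24 in the same order, and with empirical Bayes without trend 10, 13, 6 and 25. For amiodarone plus HPbCD against amiodarone, members called lower numbered 0. With a pseudocount of 5 they numbered 1, with the 2 groups fitted alone 2 and with the replicate block 1. Both agents against DMSO gave 2 lower when fitted alone, against 1. Leaving out 1 library gave 8 to 11 higher and 13 to 14 lower for LB against A549 cells, 12 to 19 and 1 for amiodarone, 2 to 11 and 0 to 1 for the addition of HPbCD, and 23 to 28 and 1 to 2 for both agents. The ALDOC share difference ranged from 0.134 to 0.180, 3.68 to 3.96, -0.896 to -0.622 and 2.98 to 3.11 percentage points in the same order of comparisons. The GAPDH call in LB against A549 cells was lost without a filter and under quantile normalization. Under the latter the difference changed sign but was not called (-0.0165, adjusted p = 0.941, limma), and the cause was not tested. Over all genes, calls for the addition of HPbCD numbered 568 and ran from 280 without amiodarone plus HPbCD replicate 1 to 825 without A549 replicate 2, and calls for amiodarone numbered 1204 and fell to 628 without LB DMSO replicate 3. Same-numbered libraries deviated together only weakly, with correlations of -0.03 to 0.21. Still, 3 to 5 of 6 samples per comparison correlated best with their own number. The main fit used no pairing, and whether same-numbered libraries share a batch was not tested. With the replicate block, members called higher were 10, 15, 9 and 26. TPM give no depth, so what depth limits cannot be stated.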
